A study of Homo sapiens with 6 samples.

Results

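A set of 7 genes of the intermediate filament network was described: the simple keratins KRT7, KRT8 and KRT18, the type III filament gene VIM, the filament linkers DSP and PLEC, and the epithelial adhesion gene EPCAM. They were chosen by symbol, and all 7 of 7 had a row among the 17104 genes of the count table. Their levels and their differences between the groups were already known when they were chosen, so both are given for these 7 genes as a description, without p-values. RNA-seq had been done on cultured human cells labelled HBMEC, a brain microvascular endothelial cell line. The 3 libraries with OGD in their titles are taken as OGD/R, in which oxygen and glucose are withheld from the culture and then given back, a model of ischaemia. The 3 libraries with CON in their titles are taken as cells in normal culture (control). The sources used here do not give how long each phase lasted. Whether a group's replicates were grown as separate cultures is not stated in the labels, and p-values therefore measure a spread between libraries that may be technical.

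Intermediate filaments are the rope-like, tension-bearing part of the cytoskeleton. Keratins assemble only as pairs of a type I and a type II chain. KRT8 (type II) and KRT18 (type I) are the main pair of simple epithelia, and KRT7 is a further type II chain of ductal and glandular epithelia. Vimentin, the product of VIM, forms filaments on its own and is the chief intermediate filament of mesenchymal and endothelial cells. Desmoplakin (DSP) anchors filaments at desmosomes, the cell-cell junctions that bear load, and plectin (PLEC) ties filaments to hemidesmosomes, actin and microtubules. EPCAM encodes a glycoprotein of epithelial cell surfaces that takes part in cell-cell adhesion.

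The filament genes are paralogs, and how near they are to each other bears on how their reads are counted. Over the whole coding region of GENCODE 29 transcripts, KRT7 and KRT8 shared 72.8% of 1366 aligned bases, KRT8 and VIM 58.7% of 1334, and KRT8 and KRT18 56.1% of 1254. The 5 KRT8 pseudogenes with a row were 90.5% to 97.1% identical to the KRT8 transcript, and the 2 KRT18 pseudogenes 91.7% and 92.0% to that of KRT18. The sources used here do not say how reads matching several genes were counted, so keratin counts carry that uncertainty. The KRT8 pseudogene rows held 0.749% to 0.806% as many counts as KRT8 in OGD/R libraries and 0.755% to 0.956% in control libraries. The KRT18 pseudogene rows held 0.0741% to 0.118% as many as KRT18 in OGD/R libraries and 0.146% to 0.181% in control libraries. None of the 8 pseudogene and antisense rows passed edgeR's test, against 19.7% of all genes (median log2 fold change 0.035). Their counts are low, so differences of the size seen for the keratins could be missed. KRT8P12, with 118 to 194 counts per library, was at 0.36 ± 0.18 (SE). KRT18P5, with 7 to 35 counts, was at −0.66 ± 0.44.

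The libraries held 31048662 to 34484647 counts. Of the 17104 genes, 3370 (19.7%) were called by edgeR (quasi-likelihood, adjusted p threshold 0.05), 1749 (10.2%) higher and 1621 (9.48%) lower after OGD/R. With total counts as the only scaling the split was 1383 higher and 2098 lower, and leaving out control replicate 3 left 1079 lower genes. In every row at least 3 libraries held 10 or more counts, so genes below that floor are absent and all shares are over such rows. A listed gene without a row was not analysed here, and why it has none was not tested. Of 15 endothelial markers listed, 6 had a row, and their summed level was 282 to 294 CPM (read counts brought to a common library size with TMM factors) in OGD/R libraries and 277 to 293 CPM in control libraries (1 called higher, 2 lower). ESAM, ENG and EGFL7 had the highest levels among them, with means of 132, 80.3 and 53.0 CPM in OGD/R libraries and 138, 78.4 and 52.7 CPM in control libraries. The 3 that were called are CDH5, ROBO4 and MMRN2, named here after their values were seen. CDH5, which encodes VE-cadherin, the adhesion protein of endothelial junctions, rose to 18.2, 14.9 and 21.3 CPM in OGD/R libraries, against 10.1, 9.47 and 11.4 CPM in control libraries (0.81 ± 0.11, edgeR adjusted p = 2.71e-07, higher in 3 of 3 libraries). ROBO4, an endothelial guidance receptor, fell to 3.79 ± 0.834 CPM in OGD/R libraries, against 6.36 ± 0.346 CPM in control libraries (−0.75 ± 0.17, edgeR adjusted p = 0.00107, lower in 3 of 3 libraries). MMRN2, an endothelial matrix protein gene with 2 to 31 counts per library, fell to 0.207 ± 0.201 CPM in OGD/R libraries, against 0.717 ± 0.195 CPM in control libraries (−1.75 ± 0.57, edgeR adjusted p = 0.0238), and its call ended without control replicate 3 (−1.50) or OGD/R replicate 2 (−1.35) or 3 (−1.46). MMRN2 reaches the floor of 10 counts in 3 libraries only through the control libraries, so its call is a description and is no support for a fall. PECAM1, VWF, KDR, TIE1 and CLDN5, which also define endothelium, had no row. Of 14 epithelial markers listed besides the 7 genes, 8 had a row, with a summed level of 148 to 159 CPM in OGD/R libraries and 154 to 166 CPM in control libraries (1 called higher, 0 lower). ELF3, ESRP1 and SPINT1 led them, while E-cadherin (CDH1) was at 0.835 to 1.14 CPM in OGD/R libraries and 1.09 to 1.28 CPM in control libraries. Of the 15 endothelial markers, 9 thus had no row, and the label rests here on the other 6, CDH5 among them. Epithelial genes were measured as well, the 8 markers above besides KRT7, KRT8, KRT18 and EPCAM. These markers do not bear out the endothelial label as a set and do not settle what the cells are. The cells are called by their label only. The part of these markers in the results for the 7 genes was not tested. Among markers of other cells, 1 of 8 for fibroblasts, 5 of 8 for pericytes and smooth muscle, 1 of 6 for astrocytes and 2 of 7 for leukocytes had a row, and none of these was called. The pericyte and smooth muscle markers summed to 12.7 to 14.0 CPM in OGD/R libraries and 13.6 to 16.2 CPM in control libraries.

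The keratin pair was among the most abundant transcripts of these cells. Levels were compared between genes as CPM per kb of the longest annotated transcript. KRT8 was at 543 ± 7.38 CPM per kb in OGD/R libraries and 432 ± 23.8 in control libraries (mean ± SD, n = 3 each), ranks 64 and 74 of 16530 genes with a known length. Its partner KRT18 followed at 461 ± 4.44 CPM per kb in OGD/R libraries and 406 ± 13.5 in control libraries, ranks 76 and 77. In control libraries these neighbours overlapped, with KRT8 at 409 to 456 and KRT18 at 395 to 421 CPM per kb. After OGD/R all KRT8 values, 535 to 548, lay above all KRT18 values, 456 to 464 CPM per kb. The overlap in control libraries rests on the length used: with the mean transcript length KRT8 was at 909 to 1015 and KRT18 at 648 to 691 CPM per kb there, while with the principal transcripts they overlapped again.

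KRT7 and VIM came next and changed places between the groups. KRT7 was at 228 ± 4.13 CPM per kb in OGD/R libraries and 203 ± 15.5 in control libraries, and VIM at 215 ± 4.55 in OGD/R libraries and 243 ± 8.80 in control libraries. The order of these neighbours rests on the length used: with the principal transcripts VIM was above KRT7 in both groups, and with the mean transcript length KRT7 was above VIM in both. PLEC was at 124 ± 3.27 CPM per kb in OGD/R libraries and 131 ± 5.41 in control libraries, so the plectin transcript was several times more abundant per length than that of desmoplakin, at 24.8 ± 0.226 in OGD/R libraries and 27.0 ± 1.28 in control libraries. EPCAM stood between them, at 33.5 ± 0.966 CPM per kb in OGD/R libraries and 30.4 ± 0.556 in control libraries. Neighbours in this lower part of the order did not overlap in either group. DSP, the lowest, was still above 83.6% of genes in OGD/R libraries and 85.6% in control libraries.

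**Figure D1:**
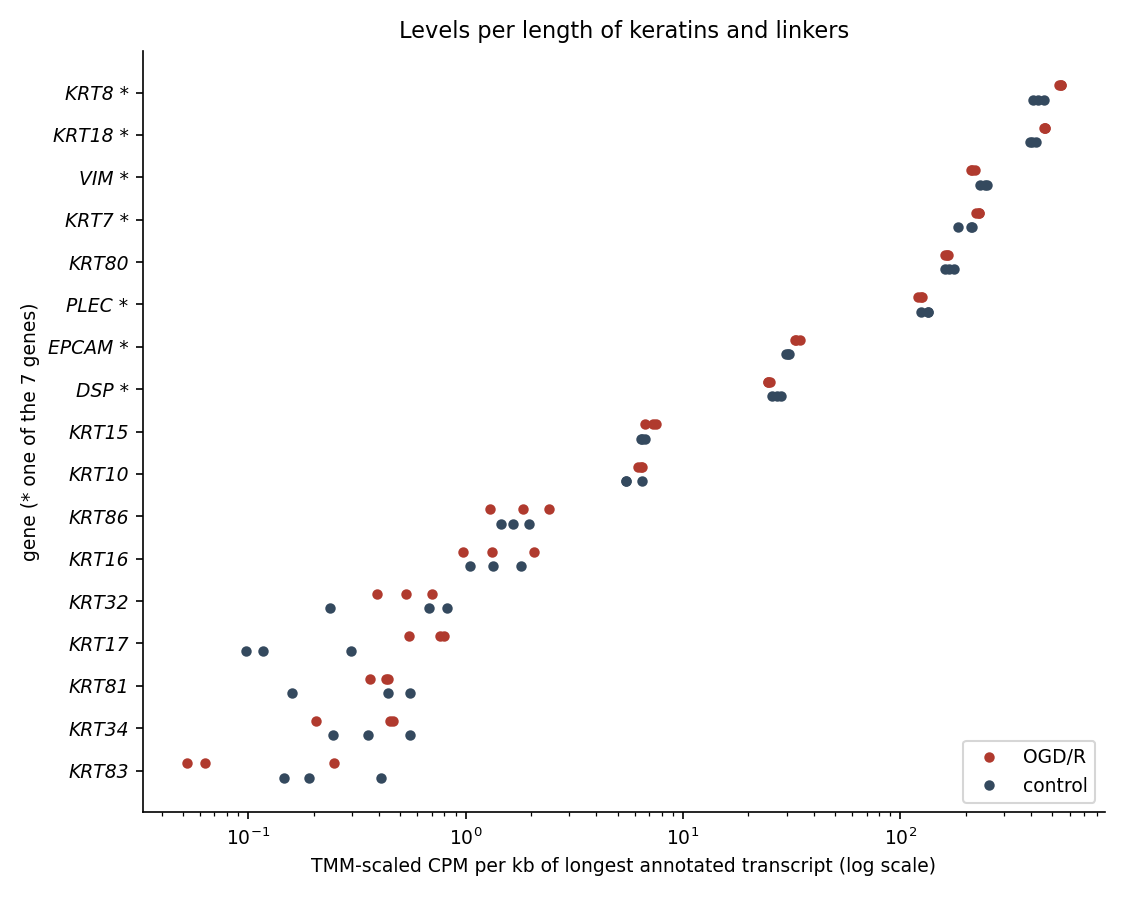
Levels of the 7 genes (marked *) and the 10 other measured keratins in TMM-scaled CPM per kb of the longest annotated transcript, on a log axis. Each point is a library, with OGD/R above control in each row. KRT8 and KRT18 lead at 395 to 548 CPM per kb, KRT7 and VIM come next, KRT80 lies below them at 163 ± 1.85 (OGD/R) and 168 ± 7.59 (control), and the other 9 keratins outside the 7 genes lie below 10.

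Among the 7 genes, the 3 keratins and EPCAM were higher after OGD/R and VIM, DSP and PLEC lower. The signs of DSP and PLEC turned when the trend of fold change with transcript length and GC content was removed. In the fit across all genes 3 of the 7 were called higher (background 10.2%) and 2 lower (background 9.48%). The groups did not overlap in 6 of 7 genes, against 33.0% of all genes, with 4 higher (background 16.4%) and 2 lower (background 16.6%). After the length and GC correction 4 were called higher and 1 lower, where 19.3% of all genes were called. Since the contrast was known when the genes were chosen, nothing is read from these counts. In bulk RNA, fewer cells of a type and less RNA per cell cannot be told apart.

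KRT8 showed the largest difference of the 7. Its level was 1531, 1569 and 1566 CPM in OGD/R replicates 1, 2 and 3, against 1170, 1306 and 1231 CPM in control replicates 1, 2 and 3. Every OGD/R library lay above the highest control library, and the OGD/R libraries were closer together (coefficient of variation 1.36%, against 5.52% in control). The log2 fold change was 0.33 ± 0.04 (SE), a level 25.9% higher. Depth does not limit this gene, which had 38202 to 52504 counts per library.

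KRT18, the type I partner, was higher by less. It was at 952, 970 and 964 CPM in OGD/R libraries and at 825, 879 and 839 CPM in control libraries, a log2 fold change of 0.18 ± 0.04. Again the groups were apart, with the control libraries more spread. The ratio of KRT8 to KRT18 RNA per length was 1.17 to 1.18 in OGD/R libraries and 1.03 to 1.08 in control libraries. For this pair, every OGD/R library thus had a higher RNA ratio than any control library. KRT8 and KRT18 lie on opposite strands, and 7.63% of the KRT8 exon bases and 16.3% of the KRT18 exon bases overlap the other gene. The sources used here do not say whether counting used the strand, and without it reads there cannot be assigned to either gene.

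KRT7 was at 403, 405 and 392 CPM in OGD/R libraries, against 324, 373 and 370 CPM in control libraries. The groups were apart by less than the range of the control libraries, in which replicate 1 was the lowest. The log2 fold change was 0.17 ± 0.04, and 0.11 without control replicate 1, where KRT7 was no longer called. Its antisense partner KRT7-AS was at 7.11 ± 0.231 CPM in OGD/R libraries and 6.76 ± 0.291 CPM in control libraries. KRT7-AS had 1.75% to 1.82% as many counts as KRT7 in OGD/R libraries, against 1.73% to 2.11% in control libraries. Genes on the opposite strand, KRT7-AS among them, overlap 7.67% of the KRT7 exon bases.

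**Figure D2:**
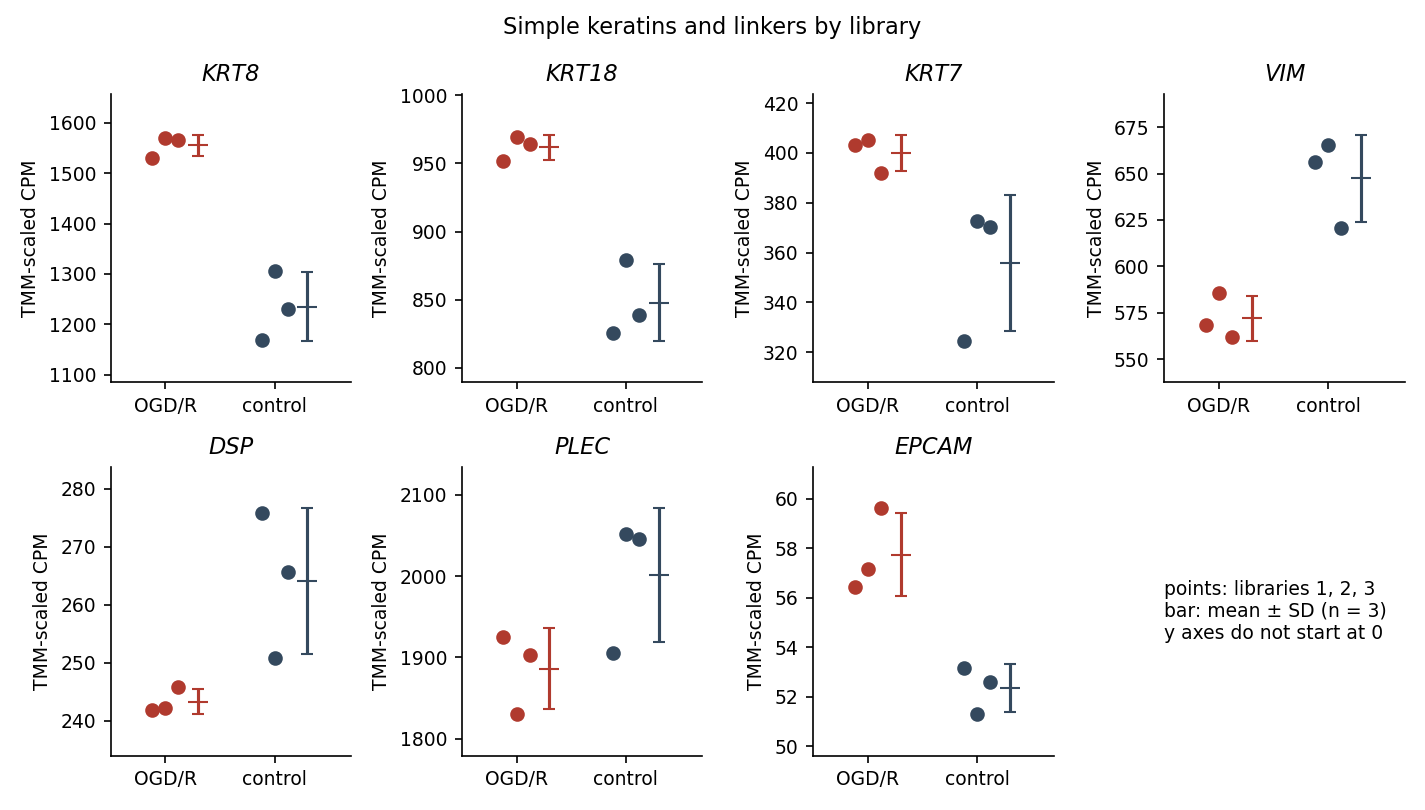
TMM-scaled CPM of the 7 genes in each library, with OGD/R left of control; points are libraries and bars the mean ± SD (n = 3), and the vertical axes do not start at 0. KRT8, KRT18, KRT7 and EPCAM are higher in every OGD/R library, VIM and DSP lower in every one, and PLEC overlaps between groups.

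Taking all 13 measured keratin genes, keratin transcripts held 0.357% to 0.359% of the library counts after OGD/R and 0.305% to 0.326% in control. KRT7, KRT8 and KRT18 made up 80.3% to 80.9% of these keratin counts in OGD/R libraries and 76.7% to 78.3% in control libraries. Summed per length, the 6 type II keratins came to 937 ± 6.63 and the 7 type I keratins to 477 ± 3.31 CPM per kb in OGD/R libraries, against 805 ± 42.8 and 421 ± 13.6 in control libraries. The ratio of type II to type I overlapped between the groups, at 1.95 to 1.97 in OGD/R libraries and 1.84 to 1.97 in control libraries.

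Among the 10 other keratin genes, 1 rose and 0 fell (10% called, against 19.7% of all genes), with a median log2 fold change of 0.075, against −0.0046 over all genes. The one that rose was KRT17, a type I keratin of basal and stressed epithelia. It was at 1.40, 1.01 and 1.46 CPM in OGD/R libraries and 0.214, 0.179 and 0.547 CPM in control libraries (log2 fold change 2.03 ± 0.45, edgeR adjusted p = 0.000601, higher in 3 of 3 libraries). This rests on 6 to 49 counts per library, reads can be shared with related type I keratins, and DESeq2 gave the gene no adjusted p. KRT17 reaches the floor of 10 counts in 3 libraries only through the OGD/R libraries. Its call is therefore a description and is no support for a rise. The other keratin with the highest CPM, KRT80, a type II chain found in most epithelia, was at 635 ± 7.22 CPM in OGD/R libraries and 653 ± 29.5 CPM in control libraries (−0.041 ± 0.040, edgeR adjusted p = 0.550), and its groups overlapped.

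The type I keratin KRT15 was at 37.5 ± 2.26 CPM in OGD/R libraries and 34.1 ± 0.737 CPM in control libraries (0.14 ± 0.07, edgeR adjusted p = 0.174), and passed after the length and GC correction, at 0.21. That value rests on the length used, a longest annotated transcript of 5237 bases, against 2124 for KRT10. Other lengths were not tried in the correction. KRT10, a type I keratin of differentiated epidermis, was at 13.6 CPM in OGD/R libraries and 12.3 CPM in control libraries (0.14 ± 0.11). The hair keratins KRT86 and KRT32 and the stress keratin KRT16 had means at or below 4.10 CPM in both groups, with overlapping libraries. Values of KRT16, KRT32 and KRT86 changed sign when single libraries were left out.

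VIM was lower after OGD/R. Its level was 569, 586 and 562 CPM in OGD/R libraries, against 656, 665 and 621 CPM in control libraries. The groups were apart, with control replicate 3 nearest to the OGD/R libraries. The log2 fold change was −0.18 ± 0.04. Ratios of the keratins to VIM follow from these opposite differences and are no further result. KRT8 over VIM, per length, was 2.50 to 2.60 in OGD/R libraries and 1.66 to 1.85 in control libraries. The ratio of KRT18 to VIM was 2.11 to 2.19 in OGD/R libraries and 1.61 to 1.73 in control libraries. Other genes on the opposite strand, among them VIM-AS1, overlap 24.4% of the VIM exon bases.

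Of 8 other intermediate filament genes measured, 3 rose and 1 fell (50% called, against 19.7% of all genes), with a median of 0.065. The 3 that rose were the nuclear lamins, which line the inner nuclear membrane. LMNA, the lamin A/C gene, rose to 846, 818 and 829 CPM in OGD/R libraries, against 645, 736 and 684 CPM in control libraries (0.27 ± 0.04, edgeR adjusted p = 1.81e-06). The B-type lamin genes LMNB1 (0.19 ± 0.05, edgeR adjusted p = 0.00364) and LMNB2 (0.12 ± 0.04, edgeR adjusted p = 0.0371) rose as well, each higher in 3 of 3 libraries. SYNM, which encodes synemin, a large filament protein that co-assembles with vimentin, fell to 12.7 ± 0.249 CPM in OGD/R libraries, against 15.7 ± 1.00 CPM in control libraries (−0.31 ± 0.10, edgeR adjusted p = 0.0277). The LMNB2 call ended without control replicate 1 (0.079) or 3 (0.13) or OGD/R replicate 2 (0.13) or 3 (0.098), and with total-count scaling (0.089). That of SYNM ended without control replicate 1 (−0.29) or 2 (−0.27) or OGD/R replicate 2 (−0.30) or 3 (−0.30) and after the length and GC correction (−0.19).

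DSP was at 242, 242 and 246 CPM in OGD/R libraries, against 276, 251 and 266 CPM in control libraries. The groups did not overlap, and control replicate 2 was the nearest to the OGD/R libraries. The log2 fold change was −0.12 ± 0.04, the smallest difference among the called members. DSP was no longer called when control replicate 1 (−0.084) or 3 (−0.11) or OGD/R replicate 1 (−0.11), 2 (−0.12) or 3 (−0.13) was left out, and its value was 0.0080 once the length and GC trend was removed.

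Of 8 desmosome genes measured besides DSP, 1 rose and 1 fell (25% called, near the 19.7% of all genes), with a median of −0.0056. JUP, which encodes plakoglobin, the armadillo protein that binds desmoplakin to the desmosomal cadherins, rose to 184 ± 6.18 CPM in OGD/R libraries, against 165 ± 3.56 CPM in control libraries (0.16 ± 0.04, edgeR adjusted p = 0.00635, higher in 3 of 3 libraries). The desmosomal cadherin DSC3 fell to 45.0 ± 3.43 CPM in OGD/R libraries, against 52.9 ± 4.56 CPM in control libraries (−0.23 ± 0.07, edgeR adjusted p = 0.00844), although its groups overlapped. DSG2, the desmosome gene with the highest CPM, was at 291 ± 7.67 CPM in OGD/R libraries and 295 ± 14.8 CPM in control libraries (−0.019 ± 0.042), a value that turned to 0.013 with the correction for length and GC and to 0.018 without control replicate 1. The JUP call ended without OGD/R replicate 1 (0.13). That of DSC3 ended without control replicate 1 (−0.18) or 3 (−0.21) or OGD/R replicate 3 (−0.19).

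PLEC had the highest CPM of the 7 genes, a value that is not corrected for its length. It was at 1925, 1830 and 1903 CPM in OGD/R libraries, against 1906, 2052 and 2046 CPM in control libraries. Control replicate 1 lay among the OGD/R libraries, so the groups overlapped. The log2 fold change was −0.085 ± 0.040 and PLEC was not called. After the length and GC correction it was 0.16 ± 0.03 and called. The direction of PLEC thus depends on whether the joint length and GC trend is removed. How much of this shift goes with length and how much with GC was not tested. With total-count scaling the log2 fold change of PLEC was −0.12 and called.

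Among the plakin relatives of DSP and PLEC and the hemidesmosome genes, 3 of 9 fell and 0 rose (33.3% called, against 19.7% of all genes), with a median of −0.15, and 1 fell after the length and GC correction. EVPL, which encodes the cornified envelope plakin envoplakin, fell to 133, 130 and 131 CPM in OGD/R libraries, against 148, 160 and 156 CPM in control libraries (−0.23 ± 0.04, edgeR adjusted p = 8.53e-05). ITGB4, the hemidesmosomal integrin subunit to which plectin binds, fell to 463 ± 12.4 CPM in OGD/R libraries, against 538 ± 18.6 CPM in control libraries (−0.22 ± 0.04, edgeR adjusted p = 5.31e-05). DST, which encodes the plakin dystonin, fell to 162 ± 6.55 CPM in OGD/R libraries, against 188 ± 5.23 CPM in control libraries (−0.21 ± 0.04, edgeR adjusted p = 0.000266). Each was lower in 3 of 3 libraries. After the length and GC correction EVPL was at −0.068 and ITGB4 at −0.081, neither of them called, while DST at −0.10 still was. MACF1, which had the highest CPM of the list and is a plakin that crosslinks actin and microtubules, was at 570 ± 13.6 CPM in OGD/R libraries and 599 ± 30.2 CPM in control libraries (−0.072 ± 0.041, edgeR adjusted p = 0.242). It was at 0.065 after that correction and was called without control replicate 2 (−0.11). Without control replicate 2 the list had 5 genes lower.

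**Figure D3:**
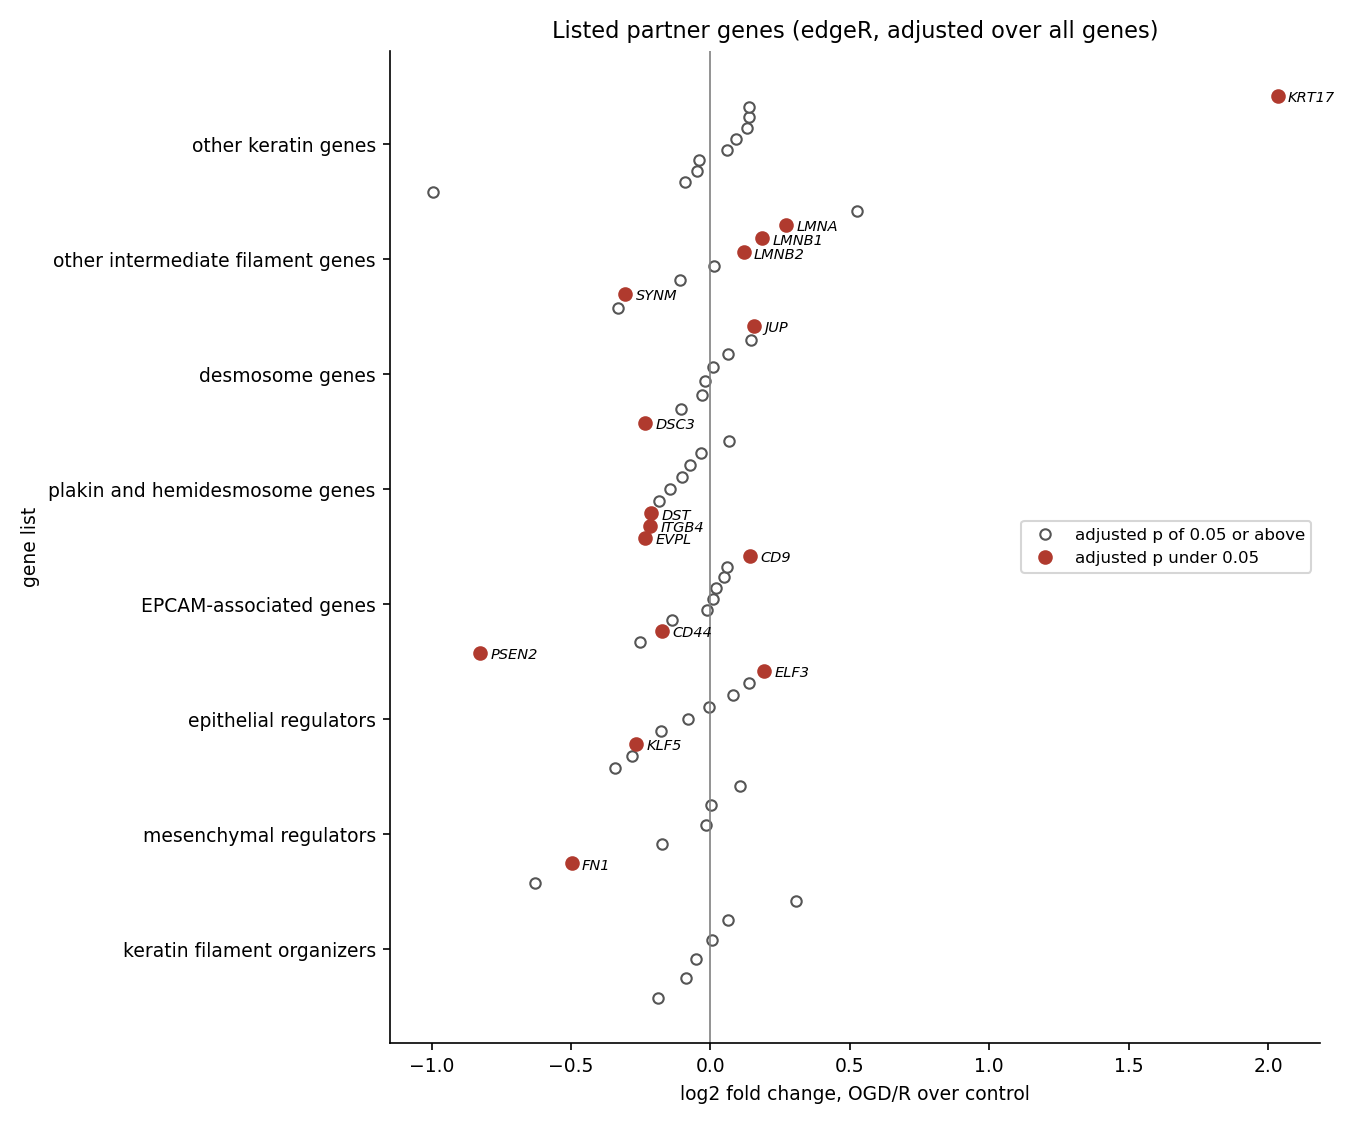
Log2 fold changes (OGD/R over control) of the measured genes in 8 lists of partners, 1 point per gene; filled points passed an adjusted p under 0.05 in edgeR over all genes and are named. The lamins, KRT17, JUP, CD9 and ELF3 are filled points to the right. PSEN2, FN1, SYNM, KLF5, DSC3, EVPL, ITGB4, DST and CD44 are filled points to the left, while most genes are open points near 0.

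EPCAM had the lowest CPM of the 7 genes. It was at 56.4, 57.2 and 59.6 CPM in OGD/R libraries, against 53.1, 51.3 and 52.6 CPM in control libraries. All OGD/R libraries were above all control libraries, yet the log2 fold change of 0.14 ± 0.06 was not called, and it was 0.030 ± 0.054 after the length and GC correction. Of 10 measured genes associated with EPCAM, among them binding partners and proteases that cleave it, 1 rose and 2 fell (30% called, against 19.7% of all genes), with a median of −0.0011. CD9, a tetraspanin, rose to 454 ± 15.6 CPM in OGD/R libraries, against 412 ± 16.0 CPM in control libraries (0.14 ± 0.04, edgeR adjusted p = 0.00929). CD44, the hyaluronan receptor, fell to 1460 ± 28.9 CPM in OGD/R libraries, against 1649 ± 41.0 CPM in control libraries (−0.18 ± 0.04, edgeR adjusted p = 0.000658). PSEN2, a catalytic subunit of gamma-secretase, fell to 1.37 ± 0.423 CPM in OGD/R libraries, against 2.43 ± 0.415 CPM in control libraries (−0.83 ± 0.28, edgeR adjusted p = 0.0260). The CD9 call ended without control replicate 1 (0.12) or 3 (0.14) or OGD/R replicate 2 (0.12) and after the length and GC correction (0.060). That of PSEN2 ended without control replicate 1 (−0.69) or 3 (−0.84) or OGD/R replicate 1 (−0.66) or 2 (−0.75).

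Of 9 measured genes that set epithelial identity, 1 rose and 1 fell (22.2% called, near the 19.7% of all genes), with a median of −0.081. ELF3, an epithelial transcription factor, rose to 47.0 ± 2.13 CPM in OGD/R libraries, against 41.2 ± 1.25 CPM in control libraries (0.19 ± 0.06, edgeR adjusted p = 0.0272). KLF5, a transcription factor of proliferating epithelia, fell to 20.4 ± 1.59 CPM in OGD/R libraries, against 24.6 ± 1.13 CPM in control libraries (−0.27 ± 0.09, edgeR adjusted p = 0.0205). KLF4, which had the highest CPM of the list, was at 53.7 ± 1.95 CPM in OGD/R libraries and 56.8 ± 1.89 CPM in control libraries (−0.081 ± 0.059, edgeR adjusted p = 0.386). The splicing factor ESRP1, at −0.18 ± 0.07 (edgeR adjusted p = 0.0794), was called without control replicate 3 (−0.24), with total-count scaling (−0.21) and after the length and GC correction (−0.20). The ELF3 call ended without control replicate 1 (0.18) or OGD/R replicate 1 (0.16) or 3 (0.19) and with total-count scaling (0.16), and that of KLF5 without control replicate 1 (−0.24) or 3 (−0.25) or OGD/R replicate 2 (−0.23) or 3 (−0.25).

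Among mesenchymal genes, where VIM is usually counted, 1 of 6 measured fell and 0 rose (16.7% called, near the 19.7% of all genes), with a median of −0.095. FN1, which encodes the matrix protein fibronectin, fell to 3047, 2895 and 3025 CPM in OGD/R libraries, against 4293, 3954 and 4417 CPM in control libraries (−0.50 ± 0.04, edgeR adjusted p = 3.37e-13). The other 5, among them the repressors ZEB1, SNAI1 and SNAI2, did not pass. Of 6 genes that organise or degrade keratin filaments, 0 passed, against 19.7% of all genes, with a median of −0.023. With so few genes nothing is read from this count. After the length and GC correction, where 19.3% of all genes were called, 1 passed, the co-chaperone gene DNAJB6. DNAJB6 was at 456 ± 3.80 CPM in OGD/R libraries and 454 ± 5.29 CPM in control libraries (0.0063 ± 0.039), and at 0.14 after that correction.

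Fold change in these libraries depended on transcript length, and the 7 genes span most of its range. The 10839 protein-coding genes with a mean log2 CPM above 2 were put into 10 equal groups by their longest transcript. The shortest group had a median log2 fold change of 0.13 and the longest one of −0.10. EPCAM, KRT7 and KRT18 have transcripts of 1724, 1754 and 2088 bases, while those of DSP and PLEC, at 9796 and 15249 bases, are longer than 96.2% and 99.3% of genes. Removing from each library a smooth trend on length and GC content left KRT8 at 0.32 ± 0.03, KRT18 at 0.13 ± 0.03 and KRT7 at 0.13 ± 0.03. VIM was at −0.24 ± 0.03 after this, farther from 0 than before. These 4 were called with and without the correction, whereas EPCAM was called in neither. Whether the length trend comes from the RNA or from the libraries was not tested.

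**Figure D4:**
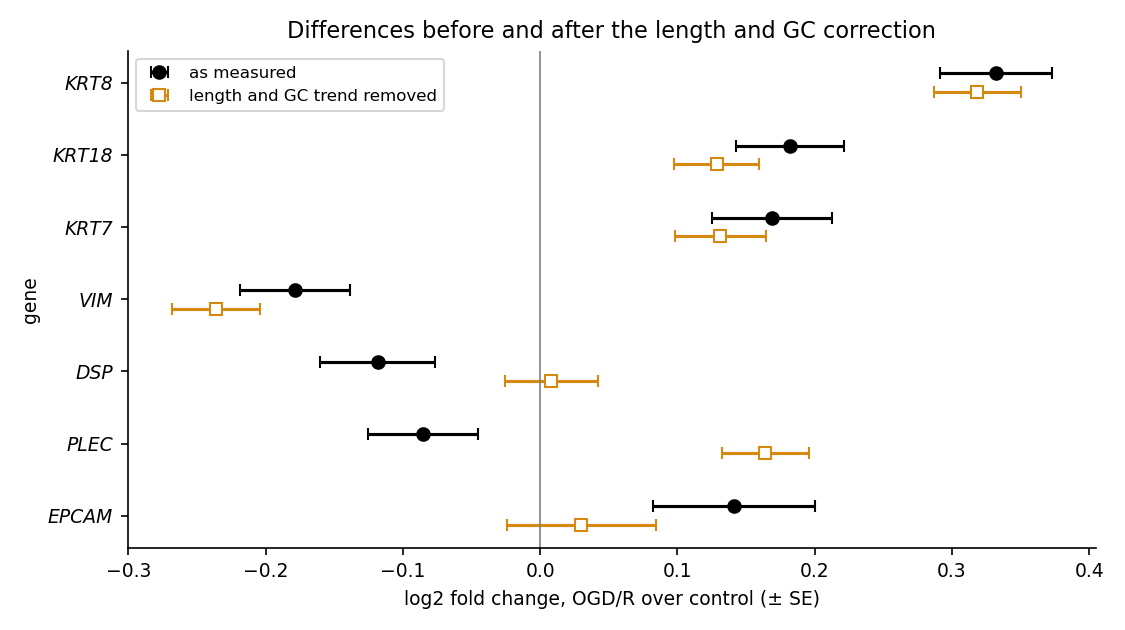
Log2 fold change (OGD/R over control, ± SE) of the 7 genes as measured (filled circles) and after removal of the length and GC trend (open squares). KRT8, KRT18, KRT7 and VIM keep their side of 0, DSP and PLEC cross it, and EPCAM is at 0.14 as measured and 0.030 after it.

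**Figure D5:**
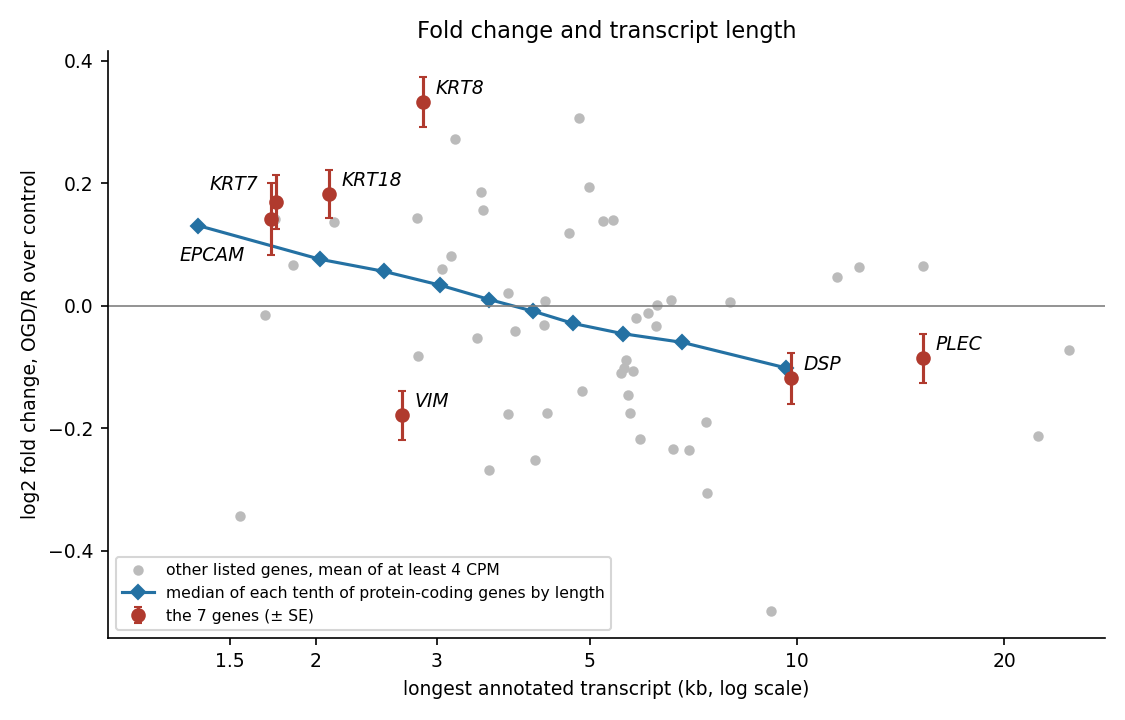
Log2 fold change (OGD/R over control) against the length of the longest annotated transcript in kb, on a log axis, for the 7 genes (± SE), for other listed genes with a mean CPM of 4 or more, and as the median of each of 10 length groups of protein-coding genes. The medians run from 0.13 to −0.10, EPCAM and DSP lie near them, KRT8 lies above and VIM below.

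The profile of each gene over the 6 libraries, as log2 CPM centred on its own mean, was set beside those of 9635 other protein-coding genes with a mean CPM of 10 or more. The measure of likeness was the root mean square difference, which for KRT8 had a median of 0.187 over these genes. Nearest to KRT8 were ERH (0.0143), TUBA1C (0.0186) and HDGF (0.0202), with log2 fold changes of 0.34, 0.34 and 0.31. Nearest to KRT18 were RPN1 (0.00943), DNAJB11 (0.0122) and HNRNPD (0.0124), and nearest to KRT7 were GMEB2 (0.0155), TRIOBP (0.0199) and DONSON (0.0200). None of the 7 genes was among the 3 nearest of another. For VIM they were SLC35C1 (0.0102), STK35 (0.0165) and TMED4 (0.0177), for DSP N4BP2L2 (0.0106), LDLRAD3 (0.0128) and TMEM87B (0.0142). PLEC was nearest to TRIM41 (0.00764), ACAD8 (0.00930) and SUPT7L (0.0122), and EPCAM to CTNND1 (0.0123), TSPAN6 (0.0128) and ESCO2 (0.0134). These are descriptions over 6 libraries of 2 groups, and with so many genes near profiles arise for any gene.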

How the data were processed

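RNA-seq of 6 libraries was analysed, 3 OGD/R and 3 control. The deposited values are raw read counts per Ensembl gene; the authors used Trimmomatic, HISAT2, SAMtools, featureCounts and edgeR, per the submitters' processing notes, with no versions or settings. Those notes name GRCm38, a mouse build, although the IDs are human genes, so the build behind the counts is uncertain. Symbols were matched for 17093 of 17104 genes. TMM-scaled counts went into edgeR 4.0.16 under R 4.3.3 (quasi-likelihood, robust, two-sided, Benjamini-Hochberg over all genes, threshold 0.05, no replicate block). filterByExpr, with a minimum count of 10, removed 0 genes. A fold change's standard error is its size over the square root of F. Transcript lengths and identities are from GENCODE 29, and the sequences themselves are not reported here. The length and GC correction removed a smooth trend (mgcv 1.9.3), fitted on 10839 protein-coding genes with a mean log2 CPM above 2, and covers 96.6% of the genes. Other alternatives were scaling by RLE or by total counts, limma-voom (limma 3.58.1), DESeq2 1.42.0, no filter, a filter of 1 CPM in 3 libraries, a replicate block and leaving out each library. Levels were recomputed with other lengths, of which the principal transcript was added after seeing the data.

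The members, the gene lists and the tests were chosen with earlier results of these data known. Named are all 7 members; from each list the genes called with the smallest p, at most 3 per direction, and the gene of highest mean CPM; keratins of at least 1 CPM; the 3 highest endothelial and epithelial markers; and the 3 nearest profiles of each member. CDH1, CDH5, ROBO4, MMRN2, PECAM1, VWF, KDR, TIE1, CLDN5, ZEB1, SNAI1 and SNAI2 were named besides the rule.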

Additional observations from a re-analysis of the deposited data

How the results depend on the processing

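KRT8, KRT18 and VIM kept their direction and their call under every alternative run, with log2 fold changes of 0.30 to 0.38, 0.13 to 0.21 and −0.24 to −0.16. The genes were chosen with this contrast known, and the runs draw on the same 6 libraries. This therefore describes the processing and adds no support for the differences. Leaving out single libraries gave 0.11 to 0.21 for KRT7 and −0.15 to −0.084 for DSP, with calls lost as reported. After the length and GC correction, without and with the replicate block, DSP was at 0.0080 and 0.0082 and PLEC at 0.16 and 0.16, both turned round. Total-count scaling put PLEC at −0.12, called. Members called lower were 2, but 1 after the correction, alone or with the block, and 1 to 2 without single libraries.

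After that correction, alone or with the block, the counts were 2 other keratins higher, 2 desmosome genes higher, 0 other intermediate filament genes lower, 1 plakin or hemidesmosome gene lower and 2 epithelial regulators lower. Total-count scaling gave 0 epithelial regulators higher and 2 lower, and 4 EPCAM-associated genes lower. Other keratins called higher were 0 with DESeq2 and with the 1 CPM filter, because DESeq2 gave KRT17 no adjusted p and the filter removed it. For the other changes the cause was not tested. Without single libraries the ranges were 1079 to 1527 for all genes lower, 0 to 1 desmosome genes higher and 0 to 1 lower, 0 to 1 EPCAM-associated genes higher and 1 to 3 lower, 0 to 1 epithelial regulators higher and 0 to 1 lower, 0 to 1 other intermediate filament genes lower and 3 to 5 plakin or hemidesmosome genes lower.

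Of named genes not called, signs turned after the length and GC correction, without and with the block, for DSG2 (0.013 and 0.013), MACF1 (0.065 and 0.065), KRT7-AS (−0.012 and −0.012) and KRT16 (−0.014 and −0.037), with total-count scaling for DNAJB6 (−0.024) and EGFL7 (−0.021), and with limma-voom for KRT32 (0.061). Without single libraries DSG2 ranged from −0.053 to 0.018, DNAJB6 from −0.00060 to 0.019, KRT32 from −0.46 to 0.25, KRT86 from −0.11 to 0.33, KRT16 from −0.28 to 0.28, ENG from −0.0065 to 0.096, EGFL7 from −0.047 to 0.046 and SPINT1 from −0.023 to 0.15.

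In OGD/R and control libraries, levels per kb of mean transcript length were 1209 and 960.5 CPM for KRT8, 756 and 666 for KRT18, 665 and 591 for KRT7, 418 and 473 for VIM, 192 and 203 for PLEC, 50.7 and 46.0 for EPCAM, and 39.7 and 43.1 for DSP. With the principal transcript, a choice made after seeing the data, they were 731 and 581 for KRT8, 616 and 543 for KRT18, and 268 and 303 for VIM. Total-count scaling gave 456 for KRT18 and 24.6 for DSP in OGD/R libraries.

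A pairing of libraries by replicate number was not shown. Deviations from the group means correlated at −0.00030, 0.085 and −0.0038 between same-numbered libraries. OGD/R replicates 1 and 3 were nearer to a control library of another number, while replicate 2 was nearest to its own. With 3 libraries per group these values cannot exclude a pairing. With the replicate block 1827 genes were higher and 1702 lower, and no member changed its call. Counts below 50 per library, as for KRT17, limit the precision of the low keratins. Other genes overlap 27.7% of the SYNM exon bases, 18.5% of those of ELF3 and 17% of those of ROBO4.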
